A study of Mus musculus with 8 samples.

Results

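Selective autophagy sends chosen cargo, such as ubiquitin-tagged protein aggregates or damaged organelles, to the lysosome. Cargo receptors bind the cargo on one side and ATG8 proteins on the other. The ATG8 proteins, which comprise the LC3 and GABARAP subfamilies, are joined to a lipid of the growing autophagosome membrane and so tether the cargo to it. In stromal stem cells the pathway is known for clearing mitochondria and protein aggregates during culture and differentiation.

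The 10 genes described here encode 5 receptors (Tax1bp1, Sqstm1, Optn, Nbr1 and Calcoco1) and 5 ATG8 proteins (Map1lc3a, Map1lc3b, Gabarap, Gabarapl1 and Gabarapl2). They were taken by symbol from 53465 gene identifiers, each symbol matching 1 identifier, and all 10 were among the 14369 genes that passed the filter on low counts. The set was selected on its known function and on earlier results of the same comparison, so the differences of its members between oxygen levels are given as a description, without p-values. Gene counts came from RNA-seq of mesenchymal stem cells (MSCs), the stromal progenitors of bone, fat and cartilage cells, taken from the bone of mice aged 3 to 5 months, with 4 samples kept at 2% O2 (hypoxia) and 4 at 21% O2 (normoxia), numbered 1 to 4 in each group. The study's methods describe wild-type male C57BL/6N mice and a sort of CD45-/TER-119-/Sca-1+/CD140a+ cells, which were then divided between the oxygen levels. In those methods all cells grew at 2% O2 up to the sort and then for a further week at 2% or 21% O2. The labels place the sort on day 12 but list it after culture at the stated oxygen level. A figure legend of the study gives an earlier day for the sort. Both groups grew in the same medium and no allele or drug distinguished them. The labels do not state whether the samples of a group came from separate animals. The study calls them independent biological replicates, and p-values measure only the spread between these samples.

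Total counts lay between 12898291 and 13433824 in 7 samples and reached 25132141 in hypoxia sample 1, so that 3 counts corresponded to 0.119 to 0.233 CPM (counts scaled to a common library size). All 10 listed MSC markers were counted in every sample, among them Ly6a (Sca-1; 398 to 501 CPM in hypoxia, 349 to 464 CPM in normoxia) and Pdgfra (CD140a; 151 to 210 and 183 to 227 CPM). Of these 10 markers 2 rose (Cd44, log2 change 0.72, limma-trend adjusted p = 0.013, and Nt5e, 0.59, adjusted p = 0.0024) and 2 fell (Col1a1, -0.74, limma-trend adjusted p = 0.0038, and Eng, -0.27, adjusted p = 0.043). With the replicate number as a block in limma-trend all 10 passed, 4 higher and 6 lower. All 10 macrophage and blood cell markers were counted in every sample too, although CD45 had been selected against. Their summed level was 605 to 1270 CPM in hypoxia and 684 to 1310 CPM in normoxia, and the macrophage marker Adgre1 reached 64.7 to 148 CPM and 66.7 to 145 CPM. These ranges overlap, and samples of the same number were high or low together. Lyz2 was the largest part of the sum, at 260.9 to 436.2 CPM in hypoxia and 399.4 to 691.3 CPM in normoxia. The median log2 change over the list was -0.30. Without the block 1 marker of the list rose (Lyz2, log2 change 0.56, limma-trend adjusted p = 0.022) while 1 fell (C1qa, log2 change -0.77, limma-trend adjusted p = 0.046), whereas with the block 1 rose and 6 fell. Csf1r was lower in normoxia in all 4 pairs, at 101.6, 145.2, 248.3 and 175.7 CPM in hypoxia and 75.1, 91.4, 165.6 and 111.3 CPM in normoxia (log2 change -0.59, limma-trend adjusted p = 0.10 without the block and 6.7e-09 with it). The part of macrophage RNA in the values below was not tested. Of the 6 red cell genes, 5 had 0 counts in all samples, and the 5 endothelial markers together stayed at or below 2.65 CPM, with Emcn at 0 in all samples.

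Promoters are shown for the receptor with the largest difference among the members, Tax1bp1, and for the most abundant ATG8 gene, Gabarap. Each window runs from 250 bases before to 50 bases after a RefSeq transcription start (GRCm38.p6), and 9 of the 10 genes had an entry, with 11 windows in all. Map1lc3a had none. Capitals mark matches, on either strand, to TGACNNNGC (the core of the antioxidant response element, bound by NRF2) or ACGTG (the core of the hypoxia response element, bound by HIF).
Tax1bp1, first start (chr6:52713479-52713778, + strand): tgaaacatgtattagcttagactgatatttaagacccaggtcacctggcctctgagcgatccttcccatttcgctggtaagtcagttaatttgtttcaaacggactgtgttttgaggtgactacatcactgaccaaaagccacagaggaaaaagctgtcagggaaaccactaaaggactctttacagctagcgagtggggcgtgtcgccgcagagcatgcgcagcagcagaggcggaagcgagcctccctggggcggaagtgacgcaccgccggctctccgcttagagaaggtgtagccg
Tax1bp1, second start (chr6:52713915-52714214, + strand): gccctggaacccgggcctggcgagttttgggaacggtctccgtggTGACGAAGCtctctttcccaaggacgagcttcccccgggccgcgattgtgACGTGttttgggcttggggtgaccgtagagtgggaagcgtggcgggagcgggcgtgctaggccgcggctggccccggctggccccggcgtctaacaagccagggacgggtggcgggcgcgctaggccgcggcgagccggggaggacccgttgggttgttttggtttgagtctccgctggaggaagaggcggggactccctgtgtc
Gabarap (chr11:69991120-69991419, + strand): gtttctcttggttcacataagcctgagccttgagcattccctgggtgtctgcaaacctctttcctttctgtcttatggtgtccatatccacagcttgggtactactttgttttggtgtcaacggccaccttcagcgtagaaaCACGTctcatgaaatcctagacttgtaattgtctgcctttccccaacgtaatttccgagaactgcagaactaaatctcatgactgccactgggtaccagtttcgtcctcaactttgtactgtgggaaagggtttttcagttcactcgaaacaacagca
The first Tax1bp1 window held neither motif. In the second, TGACNNNGC matched at -205 and ACGTG at -155 relative to the start, and in the Gabarap window ACGTG matched once, on the opposite strand, at -108. By the gene coordinates given below, Tax1bp1 begins at 52713729 and Gabarap at 69991143, before these RefSeq starts. These matches therefore lie within the annotated genes.

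Across the 11 windows, TGACNNNGC was found in 2 (Tax1bp1 second start and Map1lc3b, at +5), against 12.4% of 32851 promoters of the same length. ACGTG was found in 4 windows (Tax1bp1 second start, Gabarap, Gabarapl2 and 1 of the Nbr1 starts), against 19.6% of all promoters. CACGTG, the E-box read by TFEB and related factors, which contains ACGTG, was found in 0 of the 11 windows and in 7.15% of all promoters. These are matches of letters only.

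Among the receptors, Tax1bp1 (chr6:52713729-52766780, + strand) encodes a ubiquitin-binding receptor that carries aggregates and ferritin complexes to autophagosomes. Its level was 88.1, 85.5, 75.2 and 74.8 CPM in hypoxia samples 1 to 4 and 146.0, 146.7, 143.1 and 145.7 CPM in normoxia samples 1 to 4. All 4 normoxia samples lay above all hypoxia samples, and within hypoxia the first and second samples were higher than the others. The means were 80.9 ± 6.89 CPM and 145.4 ± 1.56 CPM (SD, n = 4 each), a 1.80-fold difference (log2 difference 0.85, SE 0.065).

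Sqstm1 (chr11:50199366-50210827, - strand) encodes p62, which gathers ubiquitin-tagged proteins into condensates and also binds the NRF2 inhibitor KEAP1. It was at 330.5, 337.8, 342.3 and 350.5 CPM in hypoxia and at 364.4, 374.6, 373.6 and 358.9 CPM in normoxia. The groups did not overlap, but the difference was small (log2 0.11, SE 0.050) and did not pass the threshold of the fit over all genes. Sqstm1 was the most abundant receptor in every sample. The gene shares 750 bases with Mrnip on the opposite strand, which had 131 counts over the 8 samples against 41099 for Sqstm1, and 20.4% of the 50-base stretches of its longest transcript also occur in Mrnip.

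Optn (chr2:5020642-5064051, - strand) encodes optineurin, a receptor for damaged mitochondria and bacteria that is phosphorylated by the kinase TBK1. It was the least abundant member, at 16.8, 18.1, 12.0 and 14.6 CPM in hypoxia against 20.3, 20.5, 21.9 and 24.3 CPM in normoxia. No hypoxia sample reached the lowest normoxia sample, although the spread in hypoxia (SD 2.68 CPM around 15.3 CPM) was wide for this level. The log2 difference was 0.51 (SE 0.12), and the same-numbered pairs gave 0.18 to 0.86.

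Nbr1 (chr11:101552149-101581951, + strand) encodes a receptor that works with p62 and takes part in the turnover of peroxisomes. Hypoxia samples 1 to 4 had 113.4, 118.4, 104.3 and 112.1 CPM, and normoxia samples 1 to 4 had 137.3, 134.9, 137.5 and 131.1 CPM. The groups were separate, with a log2 difference of 0.27 (SE 0.055). Calcoco1 (chr15:102706777-102722178, - strand), whose product is a receptor for endoplasmic reticulum and Golgi membranes, was at 56.2, 71.3, 64.5 and 64.0 CPM in hypoxia and 59.7, 69.1, 64.2 and 72.2 CPM in normoxia. These values overlapped, and the log2 difference of 0.05 was below its SE of 0.083 and ran from -0.0076 to 0.22 over the alternative settings.

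**Figure D1:**
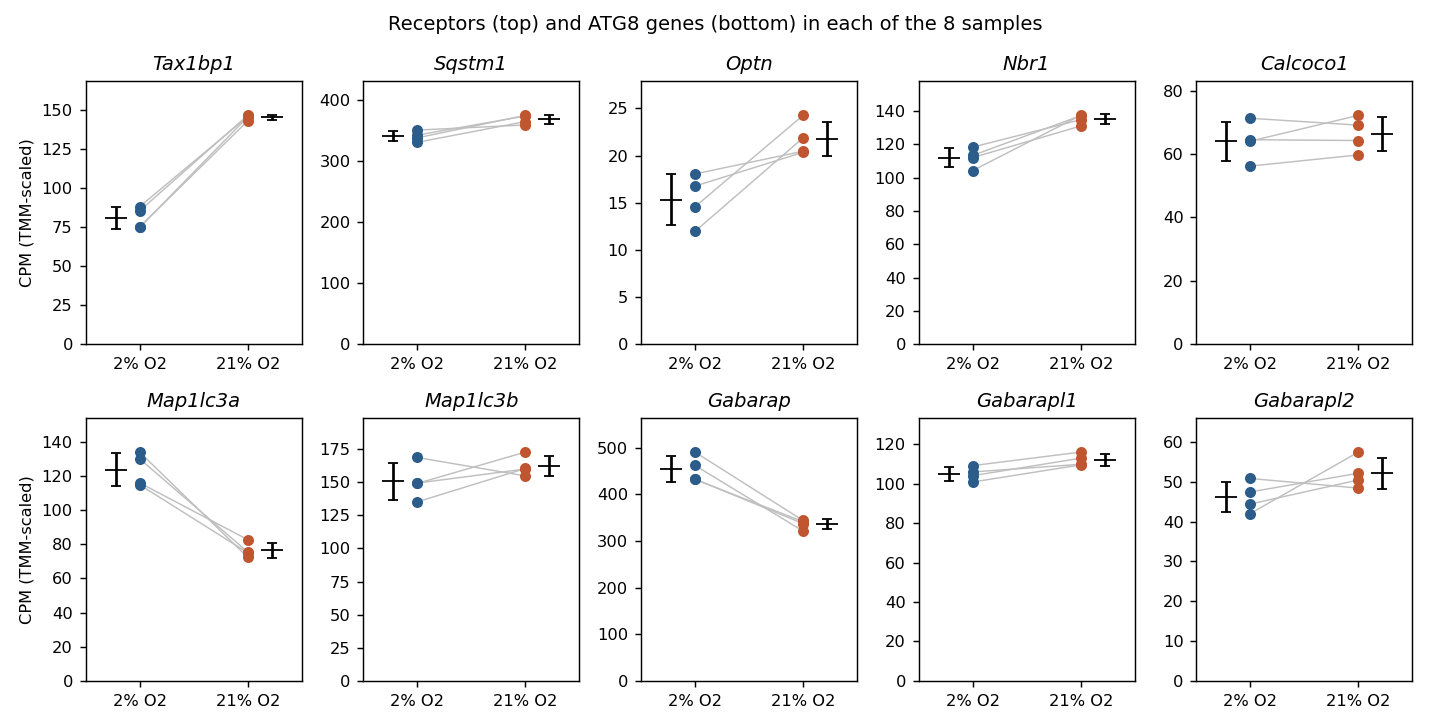
Level of each of the 10 genes in CPM (y axis, linear from 0, a separate scale for each gene) in the 4 samples at 2% O2 and the 4 at 21% O2. Points are samples, grey lines join samples of the same number, and black bars give the mean and SD. Tax1bp1 moves from 74.8 to 88.1 CPM up to 143.1 to 146.7 CPM, whereas Gabarap and Map1lc3a move down in all 4 lines.

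Among the ATG8 genes, both members with a difference past the threshold were lower in normoxia. Map1lc3a (chr2:155276297-155278073, + strand), which encodes LC3A, had 114.9, 116.0, 134.0 and 130.1 CPM in hypoxia against 75.1, 82.7, 72.4 and 75.5 CPM in normoxia. Its means of 123.8 ± 9.72 and 76.4 ± 4.42 CPM (SD, n = 4 each) put normoxia 1.62-fold lower (log2 difference -0.69, SE 0.069). Every same-numbered pair was lower in normoxia, by between 0.49 and 0.89 on the log2 scale.

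Gabarap (chr11:69991143-69994951, + strand) encodes the founding member of the GABARAP subfamily, which acts late in autophagosome closure and binds the initiation kinase complex. It had 432.0, 432.8, 462.0 and 490.6 CPM in hypoxia and 341.4, 337.3, 321.2 and 343.9 CPM in normoxia. All normoxia samples were below all hypoxia samples. The means were 454.3 ± 27.9 and 335.9 ± 10.2 CPM (SD, n = 4 each), a 1.35-fold lower level in normoxia (log2 difference -0.43, SE 0.059).

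The other 3 ATG8 genes were slightly higher in normoxia on average and did not pass the threshold. Map1lc3b (chr8:121590361-121598760, + strand) encodes LC3B, the form most used to follow autophagosomes. It had 135.1, 149.0, 149.3 and 168.6 CPM in hypoxia and 160.3, 172.7, 159.9 and 154.7 CPM in normoxia. The groups overlapped, since hypoxia sample 4 exceeded 3 of the normoxia samples (log2 difference 0.11, SE 0.069). The longest transcript of Map1lc3b shares 50-base stretches with 103 other genes (at most 5.67% of the transcript with any), 7 of them pseudogenes with 219 counts in all against 18013 for Map1lc3b. It also overlaps the end of Zcchc14 on the opposite strand by 58 bases (8721 counts) and lies within Gm20388 on its own strand (0 counts).

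Gabarapl1 (chr6:129533160-129542346, + strand), a GABARAP relative that is transcribed under FOXO control in several tissues, was at 104.1, 109.2, 100.9 and 106.0 CPM in hypoxia and 113.0, 116.1, 109.6 and 109.9 CPM in normoxia. The groups were separated by 0.364 CPM only (log2 difference 0.09, SE 0.052). It shares 18.6% of its 50-base stretches with 1700101I11Rik on the opposite strand, which had 17 counts against 12631. Gabarapl2 (chr8:111940703-111953612, + strand), which encodes GATE-16, had 44.4, 42.0, 47.5 and 50.9 CPM in hypoxia and 50.5, 57.5, 52.2 and 48.4 CPM in normoxia, with overlap (log2 difference 0.17, SE 0.077). Gabarapl2 was the 1 member whose call changed with the replicate number as a block, where it passed the threshold, and its pairs ran from -0.069 to 0.45. It shares 50-base stretches with 4 pseudogenes (at most 12.3% of the transcript with any), which had 30 counts against 5699.

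Counted over the set, 5 of the 10 members passed an adjusted p of 0.05 in limma-trend, beside 34.6% of all genes tested. Receptors made up the 3 that were higher in normoxia (Tax1bp1, Optn and Nbr1) and ATG8 genes the 2 that were lower (Map1lc3a and Gabarap), beside 18.0% of all genes higher and 16.5% lower. The values of the groups did not overlap for 7 members, beside 32.6% of all genes. With the replicate block 6 members passed, beside 46.0% of all genes. Since the members were selected with this contrast in view, nothing is read from these counts. The median log2 difference was 0.27 over the 5 receptors, 0.09 over the 5 ATG8 genes and 0.0049 over all genes tested.

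The members differed in base composition, and the contrast as a whole moved with it. Over 14353 genes the log2 change had a Spearman correlation of -0.39 with the GC content of the longest transcript, a description across genes, which are not independent replicates. Tax1bp1 had the lowest GC content of the set (39.6%) and Map1lc3a the highest (63.1%), on either side of the median of 49.7% over all genes. After a correction for GC content and length the log2 difference was 0.61 for Tax1bp1 and -0.39 for Map1lc3a, while that of Gabarap (50.8% GC) was -0.36. Sqstm1 (0.21), Calcoco1 (0.22) and Gabarapl1 (0.19) then passed the threshold, which made 8 of 10 members beside 29.5% of all genes. All 5 receptors were among the 8. A real difference tied to base composition or length would be taken away by the correction as well, and the part of base composition in the differences was not tested.

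**Figure D2:**
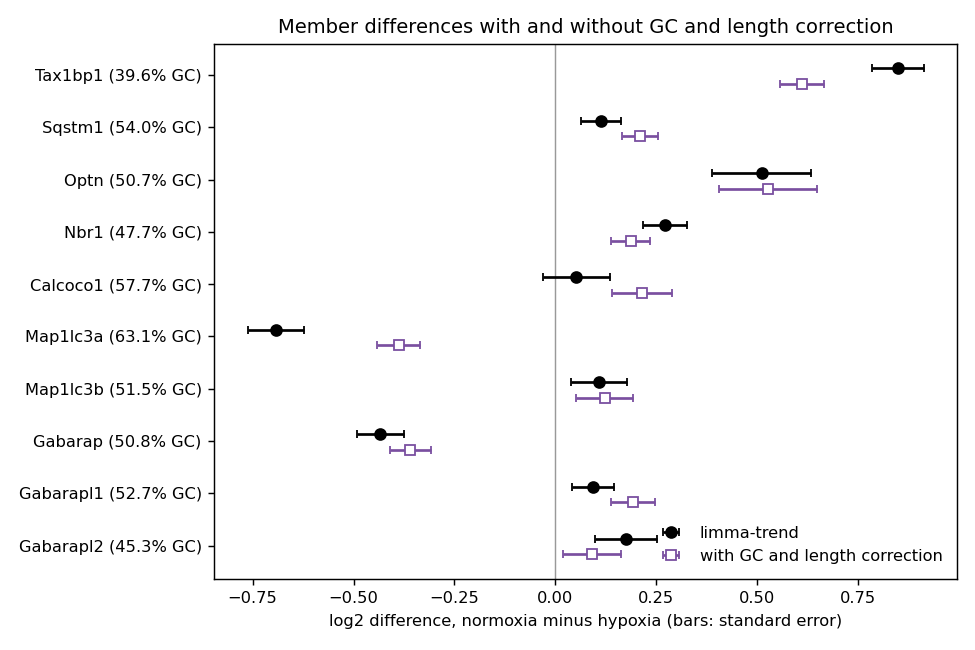
Log2 difference, normoxia minus hypoxia (x axis), of each gene with its SE as a horizontal bar, without correction (black circles) and with the GC and length correction (open squares), beside the GC content of its longest transcript. Tax1bp1 moves from 0.85 to 0.61 and Map1lc3a from -0.69 to -0.39, and no gene crosses 0.

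Levels can be compared between genes only per length, so CPM were divided by the kilobases of the longest annotated transcript. On this scale the order of the mean level over 8 samples was Gabarap (292.5 CPM per kb), Sqstm1 (132.5), Map1lc3a (90.0), Gabarapl1 (59.7), Map1lc3b (37.7), Gabarapl2 (29.3), Tax1bp1 (26.6), Nbr1 (25.8), Calcoco1 (21.95) and Optn (7.09). The ranges over the 8 samples overlapped between the neighbours Map1lc3b and Gabarapl2, Gabarapl2 and Tax1bp1, Tax1bp1 and Nbr1, and Nbr1 and Calcoco1. The other neighbours kept separate ranges. Tax1bp1 was below Gabarapl2 and Nbr1 in all 4 hypoxia samples (19.0 ± 1.62 CPM per kb, SD) and above both in all 4 normoxia samples (34.2 ± 0.368 CPM per kb, SD). With the mean length of all annotated transcripts instead, Gabarapl1 ranked above Map1lc3a, and Tax1bp1 and Nbr1 ranked above Gabarapl2. On that scale Tax1bp1 was above Gabarapl2 in hypoxia samples 1 and 2 as well, so the change of order between these genes depended on the length used.

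**Figure D3:**
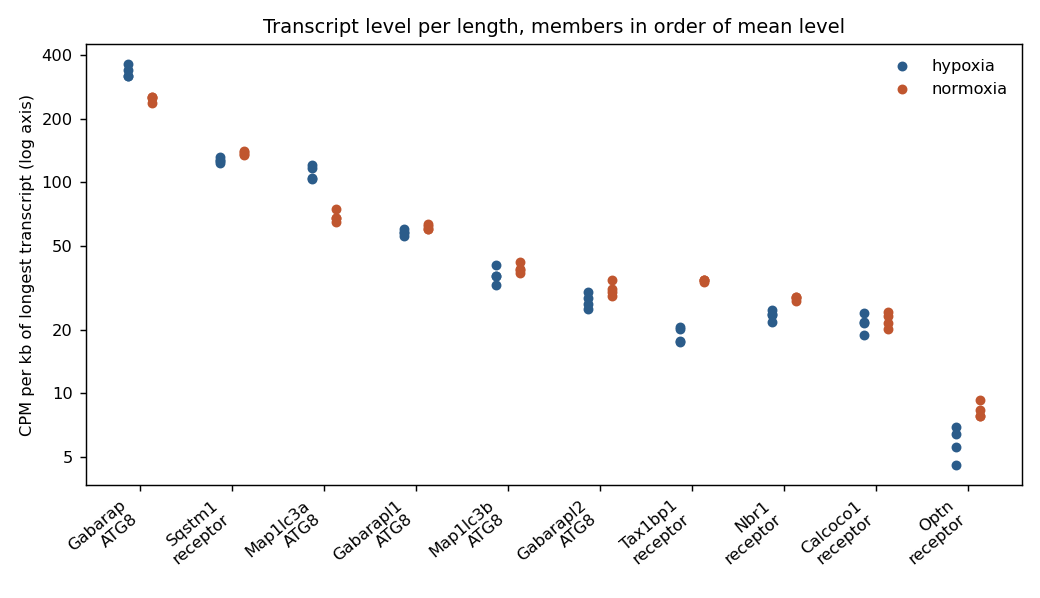
Level of each gene in CPM per kb of its longest transcript (log y axis), with the genes in order of mean level and each point 1 sample, hypoxia in blue and normoxia in orange. Gabarap lies highest in every sample, between 237.7 and 363.1, and Optn lowest, between 4.57 and 9.28.

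The make-up of each class followed from these levels. Gabarap held 58.7 to 59.6% of the summed ATG8 level per length in hypoxia and 53.8 to 56.7% in normoxia, and Map1lc3a held 19.1 to 20.7% and 15 to 16%. The 3 remaining ATG8 genes took a larger share in normoxia, with Map1lc3b going from 6.05 to 6.68% up to 8.32 to 9%. In the main fit none of these 3 passed the threshold in its own level, while the mean summed ATG8 level went from 569 to 449 CPM per kb. The GABARAP subfamily as a whole held 73.1 to 74.8% of the ATG8 level in hypoxia and 75.0 to 76.6% in normoxia, ranges that overlapped when mean transcript lengths were used (76.0 to 77.5% and 76.9 to 78.4%).

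Among the receptors, Sqstm1 held 62.5 to 66.1% of the summed level per length in hypoxia and 58.5 to 60.2% in normoxia, and Tax1bp1 held 8.84 to 10.7% and 14.5 to 15.1%. The shares of Nbr1 overlapped between the groups (11.2 to 12.2% and 11.9 to 12.6%). The summed receptor level was 193 to 202 CPM per kb in hypoxia and 227 to 234 in normoxia, whereas the summed ATG8 level was 539 to 609 and 433 to 464. The ratio of receptor to ATG8 level was therefore 0.327 to 0.370 in hypoxia and 0.504 to 0.536 in normoxia, and 0.457 to 0.514 and 0.692 to 0.734 with mean transcript lengths. These are RNA levels of whole samples, in which fewer cells of a type and less RNA per cell cannot be told apart. The sums, shares and ratios restate the differences of members that were selected with this contrast in view, so nothing further is read from them. They were computed without the GC and length correction, which made the differences of Tax1bp1 and Map1lc3a smaller.

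**Figure D4:**
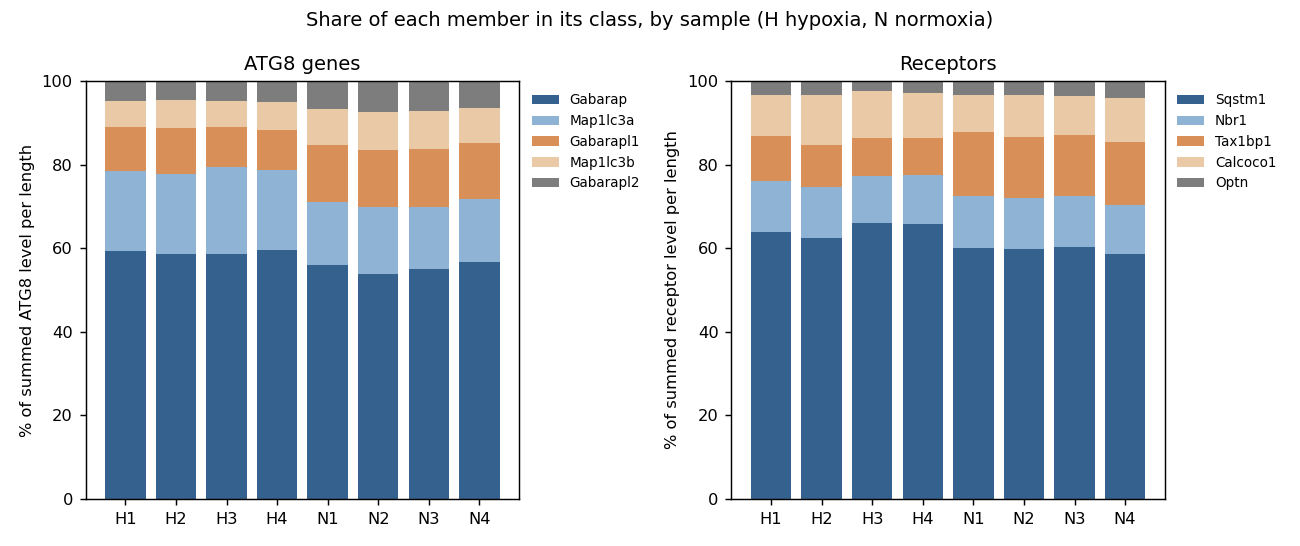
Share of each gene in the summed level per length of the 5 ATG8 genes (left) and the 5 receptors (right), in percent, stacked to 100 for each sample (H hypoxia, N normoxia). Tax1bp1 holds 8.84 to 10.7% of the receptor level in the hypoxia bars and 14.5 to 15.1% in the normoxia bars.

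To place the members among the other genes of autophagy, 95 genes in 8 lists were examined, of which 92 passed the filter. At an adjusted p of 0.05, 22 rose and 18 fell in normoxia, 43.5% of those tested beside 34.6% of all genes, and their median log2 change was -0.02. With the GC and length correction 14 rose and 16 fell, 30 of the 92 beside 29.5% of all genes. With the replicate block 45 of the 92 passed, beside 46.0% of all genes. The counts of each list below stand beside 18.0% of all genes higher and 16.5% lower, and the lists were not tested against each other. In the initiation kinase complex 1 of 5 genes rose and 1 fell: Rb1cc1, which encodes its scaffold FIP200, went from 46.5 ± 10.7 to 92.8 ± 4.57 CPM (SD, n = 4 each; log2 change 1.02, SE 0.13, limma-trend adjusted p = 0.00018). The kinase gene Ulk1 went from 73.3 to 58.9 CPM (log2 change -0.31, limma-trend adjusted p = 0.0033), a call lost with the GC and length correction (adjusted p = 0.070). Rb1cc1, like Tax1bp1, has a low GC content (39.1%). In hypoxia Rb1cc1, again like Tax1bp1, was higher in samples 1 and 2 (59.7 and 50.5 CPM) than in samples 3 and 4 (38.9 and 36.8 CPM). Other genes of low GC content did not share this order. Atg3 (40.1% GC) was at 42.76, 40.68, 40.52 and 40.91 CPM in hypoxia samples 1 to 4, and Tank (38.4% GC) at 25.37, 17.65, 17.88 and 20.96 CPM. A link of sample order with GC content was not tested.

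In the PI3-kinase complexes that start the membrane, 4 of 8 genes rose and 0 fell, and 2 rose with the GC and length correction, where Atg14 (adjusted p = 0.065) and Becn1 (adjusted p = 0.72) lost their calls. The catalytic subunit gene Pik3c3 rose from 20.8 to 29.6 CPM (log2 change 0.51, limma-trend adjusted p = 0.00080). Atg14, the subunit that directs the complex to autophagy, was at 9.13 and 11.7 CPM (log2 change 0.34, limma-trend adjusted p = 0.046), and leaving out any 1 sample other than hypoxia 2 ended its call (adjusted p 0.053 to 0.16). In the membrane supply list 1 of 10 genes rose and 2 fell. The phosphoinositide reader Wipi2 rose (71.3 to 91.8 CPM, log2 change 0.37, limma-trend adjusted p = 0.0010), and the lipid scramblase gene Atg9a fell (43.0 to 32.2 CPM, log2 change -0.41, limma-trend adjusted p = 0.0021). The lipid transfer gene Atg2a also fell (log2 change -0.37, limma-trend adjusted p = 0.0022, 0.064 with the GC and length correction). Atg9b, a relative of Atg9a, was under the filter, with 1 to 4 counts per sample.

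Of the 11 genes that process and lipidate ATG8 proteins, 4 rose and 1 fell. With the GC and length correction 1 rose (Atg3) and 1 fell, as Atg16l1, Atg12 (adjusted p = 0.24) and Atg4a (adjusted p = 0.20) lost their calls. Atg3, the enzyme that hands ATG8 to its lipid, rose from 41.2 ± 1.04 to 61.0 ± 1.45 CPM (SD, n = 4 each; log2 change 0.56, SE 0.057, limma-trend adjusted p = 7e-05). Atg7, which activates ATG8 one step earlier, fell from 30.5 to 25.5 CPM (log2 change -0.26, limma-trend adjusted p = 0.015). Atg16l1, which places the conjugation on the membrane, rose by 0.30 (limma-trend adjusted p = 0.016). That call was lost with the GC and length correction (adjusted p = 0.16) and without normoxia sample 2 or 3 (0.052 and 0.060).

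Of the other cargo receptors, the longest list, 3 of 22 rose and 8 fell. With the GC and length correction the counts were again 3 and 8, but of partly different genes. Fkbp8 (adjusted p = 0.99), Phb2 (0.081), Wdfy3 (0.078) and Retreg1 (0.053) then lost their calls, and Bnip3l, Fundc1, Atl3 and Tnip1 gained them. The 2 largest falls were those of Retreg2 (78.0 to 52.0 CPM, log2 change -0.58, limma-trend adjusted p = 0.00015) and Tex264 (119.6 to 87.9 CPM, log2 change -0.44, limma-trend adjusted p = 0.00014), both receptors for the endoplasmic reticulum. Sec62, a further receptor for that organelle, rose (164.3 to 226.3 CPM, log2 change 0.47, limma-trend adjusted p = 0.0011). Nufip1, whose product has been described as a ribosome receptor, rose from 7.09 to 11.5 CPM (log2 change 0.70, limma-trend adjusted p = 0.0020). The mitophagy receptor Bnip3, a HIF target named after its values were seen, was at 72.5 CPM in hypoxia and 60.3 CPM in normoxia (log2 change -0.26, limma-trend adjusted p = 0.042). Its groups overlapped, with hypoxia sample 2 (61.06 CPM) below normoxia samples 3 and 4 (62.65 and 67.57 CPM). Bnip3l, also named after its values were seen, was at 120.6 and 119.9 CPM (log2 change -0.0093, limma-trend adjusted p = 0.91). Calcoco2 had 0 counts in all samples, below the floor of 3 counts, and Ccpg1 had 0 to 4.

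Among 11 genes that regulate the receptors, 3 rose and 2 fell (3 and 4 once blocked by number). After correction for GC content and length, 2 rose and 0 fell, as Csnk2b, Azi2 (adjusted p = 0.057) and Tbkbp1 (adjusted p = 0.25) lost their calls. The kinase gene Tbk1, whose product phosphorylates optineurin and p62, was at 14.88, 14.04, 14.37 and 16.57 CPM in hypoxia and 21.97, 23.05, 22.01 and 21.92 CPM in normoxia (log2 change 0.57, limma-trend adjusted p = 0.00039). Its adaptor gene Tank rose from 20.5 to 31.3 CPM (log2 change 0.62, limma-trend adjusted p = 0.0020). Csnk2b, a subunit of casein kinase 2, fell by 0.19 (limma-trend adjusted p = 0.025). With the GC and length correction this value was -0.02 (adjusted p = 0.79), and the call was also lost without hypoxia sample 3 or normoxia sample 2 or 4 (0.054 to 0.061).

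In the fusion list 2 of 14 genes rose and 2 fell. Rab7, the small GTPase of late endosomes, rose from 167.6 to 198.2 CPM (log2 change 0.24, limma-trend adjusted p = 0.0033), and Vps39 of the HOPS tethering complex by 0.29 (limma-trend adjusted p = 0.0070). Plekhm1, an adaptor that binds both RAB7 and ATG8 proteins, fell from 48.9 to 34.5 CPM (log2 change -0.50, limma-trend adjusted p = 0.0013). The SNARE gene Vamp8 fell by 0.26 on the log2 scale (limma-trend adjusted p = 0.014).

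Of the 11 transcription regulators of the pathway, 4 rose and 2 fell. With the GC and length correction 2 rose and 2 fell, as Mitf (adjusted p = 0.17) and Fnip1 (adjusted p = 0.75) lost their calls. Nfe2l2, which encodes NRF2, was at 94.5, 89.1, 86.0 and 79.1 CPM in hypoxia and 141.1, 125.9, 131.2 and 127.5 CPM in normoxia, without overlap (log2 change 0.59, SE 0.066, limma-trend adjusted p = 0.00011). Foxo3 fell from 82.6 to 63.7 CPM (log2 change -0.37, limma-trend adjusted p = 0.0024) and Tfe3, a relative of TFEB, from 64.3 to 53.8 CPM (log2 change -0.26, limma-trend adjusted p = 0.0062). Flcn, which encodes folliculin, rose by 0.30 (limma-trend adjusted p = 0.017), a call lost without normoxia sample 3 or 4 (adjusted p 0.056 and 0.050).

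**Figure D5:**
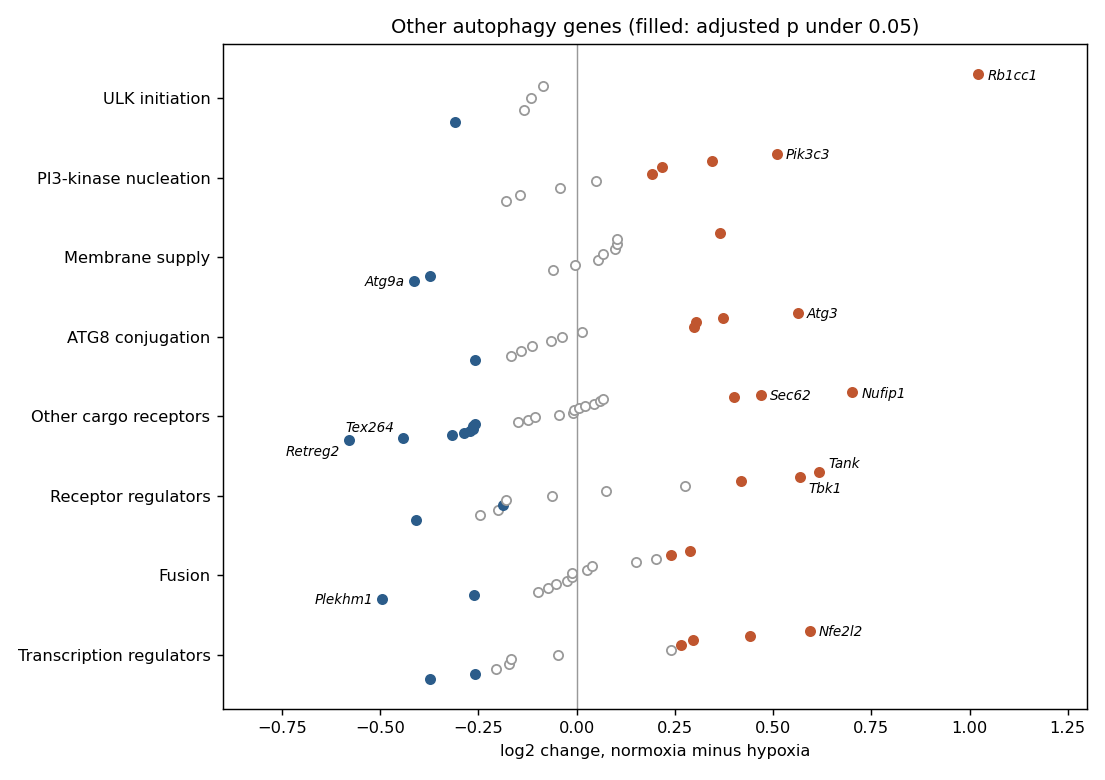
Log2 change, normoxia minus hypoxia (x axis), of the 92 tested genes in the 8 lists, each point 1 gene, spread vertically within its list for legibility. Filled points passed an adjusted p of 0.05 in limma-trend (orange higher, blue lower), open points did not, and the 22 rises and 18 falls occur side by side in most lists, led by Rb1cc1 at 1.02.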

How the data were processed

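RNA-seq libraries of 8 samples were sequenced as single-end reads of 150 bases. The authors processed the reads with zUMIs 2.2.1, STAR 2.6.1a, samtools 1.9 and featureCounts (Rsubread 1.32.4) on mm10 with Ensembl GRCm38 release 91 annotation and deposited raw counts per gene. Use of strand, introns and multi-mapping reads is not given in the sources used here, so reads from overlapping or near-identical genes cannot be assigned with certainty. Symbols, positions, GC content and lengths came from GENCODE M21 on the same assembly, and promoters from RefSeq. No protein sequences were used here.

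Following the study's methods, genes were kept by filterByExpr (minimum count 5). TMM-scaled log2 CPM (prior count 3) were compared by limma-trend (limma 3.58.1, edgeR 4.0.16, R 4.3.3) with Benjamini-Hochberg adjustment over all 14369 genes and called at 0.05. A positive log2 change is a higher level in normoxia. Ranges of CPM, levels per length and shares are over samples. The floor of 3 counts covers counting error only. The limma-trend fit, its blocked form, edgeR, DESeq2 and limma-voom were run on simulated counts that held no pairing and no GC trend. The GC and length correction and the other scalings, filters and prior count were not run on simulated counts.

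Samples with the same number were taken as pairs, because their deviations from the group means, correlated across genes, gave 0.47, 0.28, 0.25 and 0.17 for numbers 1 to 4, all above 0.1. Samples of different number were not correlated, so these values cannot show that equal numbers match better than others. The sample titles number the samples within each group and state no pairing, and the results with the block rest on it. The study describes dividing sorted cells between the oxygen levels. The comparison without the block was kept as the main one.

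The members and gene lists were chosen with earlier results of these data known. Named genes were the 10 members and, from each list, up to 2 rises and 2 falls with the largest change among genes past the threshold whose groups did not overlap. Alternatives were the block, the edgeR quasi-likelihood test, DESeq2 1.42.0, limma-voom, RLE and upper quartile factors, other filters and prior count, splines of GC content and length (5 degrees of freedom each) removed from each sample, and leaving out each sample.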

Additional observations from a re-analysis of the deposited data

Results flagged for a closer look

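In 74 sets of 4 samples (values of members, named autophagy genes, summed macrophage markers and total counts), 3 held a sample far from the others by Dixon's ratio of its gap to the whole range. Chance alone gives 3.7. Hypoxia sample 1 held 25132141 counts in total, while its 3 group mates held 12929564 to 13219647 (ratio 0.976). Atg3 was lower in normoxia sample 2, at 5.88 log2 CPM against 5.95 in the others (ratio 0.923), and Tbk1 was higher in the same sample, at 4.54 log2 CPM against 4.47 (ratio 0.926). None of the 10 members had such a value.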

How the results depend on the processing

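Tools, scaling, filters and prior counts left the 5 member calls at 5 and no member difference moved by more than 1 SD under them. All 12 values that moved by more than 1 SD, of 190, came from the GC and length correction. With it 8 members passed the threshold, beside 4238 of 14353 genes. With that correction and the block together 8 passed, beside 6202 of 14353 genes. The correction also lowered the genes of the 8 lists that rose from 22 to 14. With the replicate block, which uses the pairing of the numbers, 6610 genes in place of 4970 passed the threshold, as did 6 members in place of 5 (Gabarapl2 was added) and 45 list genes in place of 40. It ended no call of a named gene. Leaving out each sample in turn gave 3838 to 5423 genes, 31 to 40 list genes, 15 to 22 rises and 14 to 20 falls. Of 475 values for the 25 named list genes, 450 kept direction and call, 25 lost the call and 0 reversed. Atg14 accounted for 12 of the 25 losses, under DESeq2, both other scalings, no filter, the GC and length correction and 7 omitted samples. Gabarap held 40.2% of the summed level per length of all members over the 8 samples, 39.6 to 40.9% with a sample left out and 35.8% with mean transcript lengths. The causes were not tested. Depth limits Optn most among the members, with 2151 counts over the 8 samples.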
